A study of Mus musculus with 4 samples.

Results

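Of the 56285 regions acetylated at lysine 27 of histone H3 (H3K27ac) in a deposited list from mouse Th17 cells, 2995 (5.32%) lay over a noncoding RNA gene and away from protein-coding genes. They were chosen by the measured width and position of each peak, set against the RefSeq genes of GRCm38.p6. A peak had to be narrower than 3000 bp, overlap a noncoding RNA gene by at least 1 bp, touch no protein-coding gene nor the 1 kb on either side of its ends, and lie under 100 kb from a protein-coding gene. They covered 2308938 bp, which was 3.57% of the acetylated length. Of all peaks, 7542 (13.4%) overlapped a noncoding RNA gene, 4334 of those overlapped no protein-coding gene, 4140 also lay outside the gene-end windows, and 3811 of those were narrower than 3000 bp. A further 816 of these 3811 lay 100 kb or more from a protein-coding gene and were left out, and 255 peaks that met every other condition, the 100 kb limit included, were left out for their width alone. The widths on both sides of the limit ran on without a step. The widest peaks kept measured 2991, 2987 and 2982 bp and the narrowest ones left out 3005, 3008 and 3009 bp.

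Th17 cells are the CD4+ helper T cells that secrete IL-17. They had been grown from C57BL/6 naive CD4+ T cells for 72 h on plates coated with hamster IgG. The T cell receptor was engaged with 0.25 µg/mL of anti-CD3ε and costimulation given with 1 µg/mL of anti-CD28. The polarising cytokines were 20 ng/mL of IL-6 and 0.1 ng/mL of TGF-β, for which the description of the culture allows 0.1 to 5.0 ng/mL. The series holds 4 libraries, 2 of H3K27ac immunoprecipitation and 2 of input DNA, all from cultures of this kind, with no untreated cells and no other cell type. The labels name no genotype, and the peak names carry the text WT_Ddx5, which the labels do not explain. The list holds positions only. It gives no score, signal or value per replicate, so no peak could be compared between replicates, the depth behind a peak is unknown, and shares and medians below are descriptions without a test. The Th17 and T cell markers Il17a, Il17f, Il23r, Ccr6, Cd4 and Cd3e each had a peak within 1000 bp of a gene end, and 0 of 6 markers of other cells did.

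A long noncoding RNA (lncRNA) is transcribed, and often spliced, like a messenger RNA but is not known to be translated. Some act in cis at the locus that makes them, some in trans, and for many no role is known. Short noncoding RNAs have better defined work: transfer RNAs carry amino acids to the ribosome, small nuclear RNAs splice messages, and microRNAs guide Argonaute proteins to messages that pair with their seed. H3K27ac marks active promoters and active enhancers alike. A peak over a noncoding RNA gene can therefore be the promoter of that gene, an enhancer that happens to lie in it, or both, and the mark does not tell these apart.

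The sequences under these peaks that are best known in T cells are microRNAs, and the arms of 5 hairpins are shown for their seeds (bases 2 to 8, in capitals), as RefSeq gives them on GRCm38.p6. These 5 were picked after their values were seen. Mir155, needed for normal helper T cell responses, lies on the plus strand of chromosome 16, at 84714140 to 84714204. Mir23a, Mir27a and Mir24-2 lie in this order on the plus strand of chromosome 8, between 84208518 and 84208921. Mir210, a target of the hypoxia factor HIF-1, lies on the minus strand of chromosome 7, at 141221384 to 141221493.
mmu-miR-155-5p: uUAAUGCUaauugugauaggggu
mmu-miR-155-3p: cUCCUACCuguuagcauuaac
mmu-miR-23a-5p: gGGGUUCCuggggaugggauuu
mmu-miR-23a-3p: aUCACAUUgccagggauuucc
mmu-miR-27a-5p: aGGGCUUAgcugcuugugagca
mmu-miR-27a-3p: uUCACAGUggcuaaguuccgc
mmu-miR-24-2-5p: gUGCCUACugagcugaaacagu
mmu-miR-24-3p: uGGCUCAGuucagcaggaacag
mmu-miR-210-5p: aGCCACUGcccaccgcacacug
mmu-miR-210-3p: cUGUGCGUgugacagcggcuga
The 10 seeds printed are all different, as were all 25 seeds of the 25 mature sequences of the 14 microRNA genes under these peaks.

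Promoters of 5 lncRNA genes whose start lay under a peak of the set are shown next, because they include CpG-rich and CpG-poor sequence. Each runs from 250 bases before to 50 bases after the RefSeq start on GRCm38.p6, along the strand of the gene. Capitals mark matches on either strand to AP-1 (TGANTCA), ETS (CCGGAAG), the GC box (GGGCGG), the TATA box (TATAAA), the CCAAT box (CCAAT) or a nuclear receptor half-site (AGGTCA). No motif of the list contains another. Dleu2, which hosts the hairpins of miR-15a and miR-16, is at chr14:61682324-61682623 on the minus strand and holds 29 CpG dinucleotides. Ftx, at chrX:103623705-103624004 on the minus strand, holds 12 CpG. Jpx, like Ftx a gene of the X-inactivation centre, is at chrX:103493308-103493607 on the plus strand and holds 27 CpG. Mir22hg, the host of miR-22, is at chr11:75461289-75461588 on the plus strand and holds 12 CpG. Mirt1 is at chr19:53464747-53465046 on the minus strand and holds 3 CpG.
Dleu2 promoter: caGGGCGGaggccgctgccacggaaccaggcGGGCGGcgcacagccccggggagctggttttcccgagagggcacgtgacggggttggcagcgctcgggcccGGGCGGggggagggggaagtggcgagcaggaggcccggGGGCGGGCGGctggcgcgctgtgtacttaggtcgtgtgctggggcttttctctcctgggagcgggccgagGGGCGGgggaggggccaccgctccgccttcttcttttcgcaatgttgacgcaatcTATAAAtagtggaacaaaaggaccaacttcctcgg
Ftx promoter: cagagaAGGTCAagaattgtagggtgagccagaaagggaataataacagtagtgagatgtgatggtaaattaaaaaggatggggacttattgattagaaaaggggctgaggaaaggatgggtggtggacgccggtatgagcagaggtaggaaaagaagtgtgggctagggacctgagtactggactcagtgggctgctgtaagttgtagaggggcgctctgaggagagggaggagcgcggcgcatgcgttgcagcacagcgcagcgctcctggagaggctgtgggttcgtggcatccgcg
Jpx promoter: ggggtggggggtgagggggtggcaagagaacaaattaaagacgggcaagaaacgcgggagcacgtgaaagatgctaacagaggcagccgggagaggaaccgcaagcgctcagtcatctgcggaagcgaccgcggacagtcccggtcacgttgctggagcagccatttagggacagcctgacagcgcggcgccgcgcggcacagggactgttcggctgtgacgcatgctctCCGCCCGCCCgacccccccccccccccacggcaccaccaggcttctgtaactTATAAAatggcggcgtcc
Mir22hg promoter: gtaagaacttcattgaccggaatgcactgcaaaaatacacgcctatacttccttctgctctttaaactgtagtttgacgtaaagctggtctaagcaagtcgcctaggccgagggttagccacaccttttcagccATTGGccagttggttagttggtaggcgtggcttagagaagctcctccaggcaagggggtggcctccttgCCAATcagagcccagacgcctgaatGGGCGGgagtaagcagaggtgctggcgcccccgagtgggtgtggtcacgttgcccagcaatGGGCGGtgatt
Mirt1 promoter: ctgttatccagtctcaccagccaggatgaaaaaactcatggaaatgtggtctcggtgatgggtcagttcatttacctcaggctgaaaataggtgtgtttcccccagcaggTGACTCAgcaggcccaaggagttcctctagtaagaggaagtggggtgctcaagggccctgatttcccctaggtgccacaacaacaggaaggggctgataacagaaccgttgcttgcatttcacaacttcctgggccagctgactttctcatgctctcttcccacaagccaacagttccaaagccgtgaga
The promoters of Dleu2 and Jpx had GC boxes and a TATA box, that of Mir22hg had GC boxes and CCAAT boxes, Ftx had 1 nuclear receptor half-site and Mirt1 had 1 AP-1 match. The Mir22hg peak, at 75461494 to 75463115, covered only the last part of the printed window. The other 4 peaks covered the whole of theirs.

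Nearly all of the 2995 peaks lay over lncRNA genes. A lncRNA gene was under 2903 of them, and 92 touched other kinds of noncoding RNA gene only. In all, 1615 of 16925 annotated noncoding RNA genes (9.54%) had such a peak, a share that the rule itself fixes. By kind, 1491 of 12727 lncRNA genes, 65 of 408 tRNA genes, 20 of 1004 snRNA genes, 14 of 1228 microRNA genes, 10 of 1340 snoRNA genes and 10 of 94 genes of the class misc_RNA had one. Many short RNA genes lie inside protein-coding genes, where the rule cannot find them. Among noncoding genes that lie wholly outside protein-coding genes and their end windows, and under 100 kb from one, the share was 20.2% for lncRNA (1049 of 5186), 21.5% for tRNA (65 of 302), 5.65% for microRNA (14 of 248), 4.94% for snRNA and 2.31% for snoRNA genes, and 0 of 53 for rRNA genes. A peak meets a long gene more readily than a short one, and the part of gene length in these shares was not tested. LncRNA genes with a curated RefSeq transcript had a peak more often than models that RefSeq only predicts. The shares were 26.3% (310 of 1180) and 18.4% (739 of 4006) of the genes so placed. The median length was 8848 bp for all curated lncRNA genes and 13282 bp for those with a peak. For predicted ones it was 8298.5 and 12797.5 bp. Most of these genes had a single peak of the set (953 of 1615, 59.0%), 551 had 2 to 4, and 111 (6.87%) had 5 or more.

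The peaks were somewhat wider, and lay farther from protein-coding genes, than peaks at a similar remove that overlap no annotated gene. These 10375 comparison peaks met the same limits on width and distance. The median width was 489 bp (quartiles 240 and 1104.5) over noncoding RNA genes, 426 bp (219 and 879) over no gene, and 508 bp among all 51918 peaks under 3000 bp. Peaks of 2000 bp or more made up 8.25% of the set and 5.47% of the comparison peaks. The median distance to the nearest protein-coding gene was 19468 bp against 15494 bp, 30.7% against 37.5% lay under 10 kb, and 19.1% against 14.8% lay at 50 kb or more. The quartile ranges overlap for both measures. Width and distance are also values that the rule used. A wide peak meets a noncoding RNA gene more readily, and a comparison peak may touch no gene. With the peak midpoint required to lie inside the noncoding RNA gene, the median width of the set was 455.5 bp. The part of this sorting in the widths was not tested. Crowding was alike in both sets. The median gap to the nearest peak was 371 and 366 bp, and 87.0% and 87.7% had another peak within the 12.5 kb used for stitching. The stitched cluster held a peak at a protein-coding gene end for 39.4% of the set and 41.9% of the comparison peaks, and a peak of 3000 bp or more lay within 1000 bp of 8.11% and 8.06%. Because the peaks crowd together, several can come from 1 acetylated stretch: the 2995 peaks fell into 1475 clusters.

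**Figure D1:**
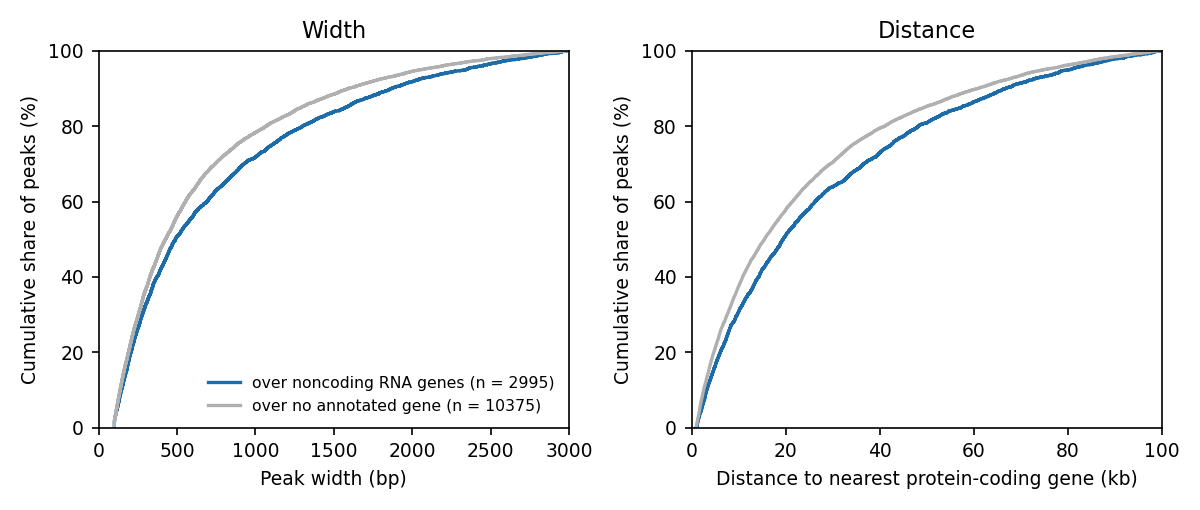
Cumulative share of peaks (y axis, %) by width in bp (left) and by distance to the nearest protein-coding gene in kb (right), for the 2995 peaks over noncoding RNA genes (blue) and the 10375 comparison peaks over no annotated gene (grey). The blue curves lie to the right of the grey ones, with medians of 489 against 426 bp and of 19468 against 15494 bp. Width and distance are also values that the rule used.

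Along the lncRNA genes the peaks gathered at the start. Strand was known for 1159 of the genes, which gave 2388 pairs of a peak and a gene. In 493 pairs (20.6%) the peak reached within 1 kb of the start, and in 297 (12.4%) within 1 kb of the finish, a window of the same size. The start base itself was under the peak in 291 pairs and the finish base in 102. With each gene cut into 10 equal bins, peak midpoints fell in the first bin in 383 pairs (16.0%) and in the last in 189 (7.91%), while the bins between held 159 to 239 pairs each. Most pairs (1660, 69.5%) had the peak inside the gene and beyond 1 kb from both ends. Among lncRNA genes of at least 10 kb, 12.4% of 1765 pairs were near the start and 5.55% near the finish.

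**Figure D2:**
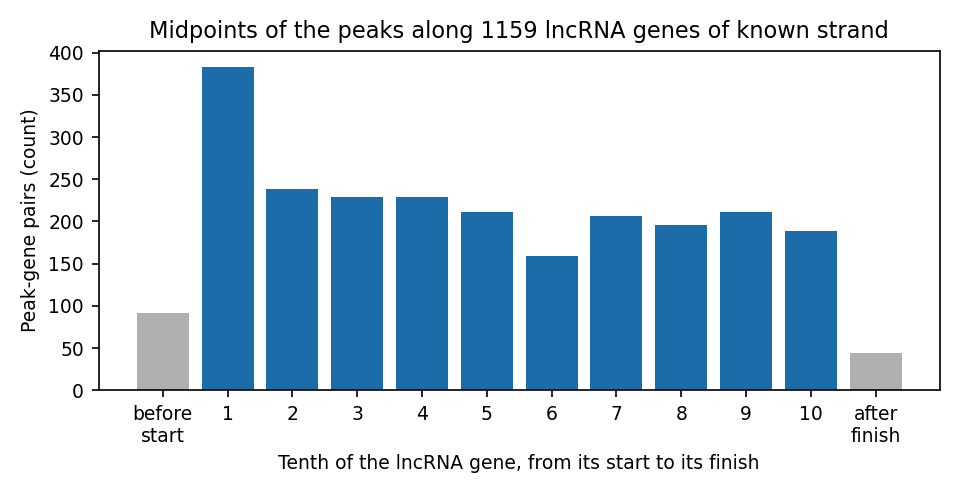
Number of peak and gene pairs (y axis) whose peak midpoint falls in each of 10 equal bins of the lncRNA gene from start to finish (blue bars), or before the start or after the finish (grey bars), for 2388 pairs over 1159 genes. The first bin holds 383 pairs, and the other bins hold 159 to 239.

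The preference for starts was larger at curated genes. The start base was under the peak in 144 of 842 pairs with curated genes (17.1%) and the finish base in 28, against 147 (9.51%) and 74 of 1546 pairs with predicted genes. A second count did not begin from the peaks. Of 3886 lncRNA genes clear of protein-coding genes and of known strand, 253 (6.51%) had their start under a peak of the set and 78 (2.01%) their finish. With peaks of any width the counts were 355 (9.14%) and 138 (3.55%). Of 956 curated genes, 172 had any peak at the start and 44 (4.60%) at the finish, and of 2930 predicted genes 183 (6.25%) and 94 (3.21%).

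Peaks over an end were wide and peaks inside the genes were narrow. The median was 1451 bp (quartiles 864 and 2084.5) over a start, 1414 bp over a finish and 400 bp (215 and 845.25) inside. Of the 2995 peaks, 1034 (34.5%) lay within 1 kb of either end of a noncoding RNA gene, with a median width of 801 bp against 404 bp for the others. A wide peak touches any given base more readily than a narrow one, so width and position are not independent here. The part of width in the share at ends was not tested, and the medians over starts and over finishes were close.

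LncRNA starts under the peaks were richer in CpG than lncRNA starts without a peak, and poorer than acetylated starts of protein-coding genes. CpG-rich stretches, or CpG islands, are common at promoters of widely expressed genes. The 349 promoters of 315 lncRNA genes that began under a peak of the set held a median of 7 CpG (quartiles 4 and 14) in 300 bases. The 4653 lncRNA promoters clear of protein-coding genes and without a peak in the window held 3 (2 and 6), and the 10382 protein-coding promoters under a peak held 22 (15 and 30). At least 10 CpG were found in 37.0%, 7.39% and 88.1% of them. The protein-coding promoters lay under peaks of any width, the lncRNA promoters of the set only under peaks narrower than 3000 bp. The part of this unlike limit was not tested. Counted from the sequence, 129 of the 534 clear lncRNA starts with at least 10 CpG lay under a peak of the set (24.2%), and 220 of the 4686 with fewer did (4.69%). Curated starts under a peak were richer than predicted ones, with at least 10 CpG in 51.3% of 154 and 25.6% of 195. Of the promoters printed above, Dleu2 and Jpx are within the quartiles of acetylated protein-coding promoters and Mirt1 is at the median of lncRNA starts without a peak.

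**Figure D3:**
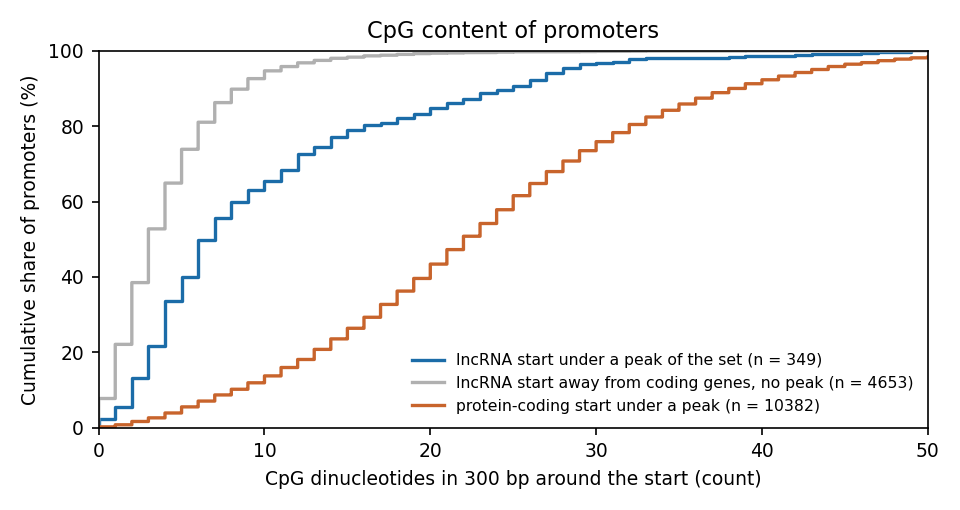
Cumulative share of promoters (y axis, %) by the number of CpG dinucleotides in the 300 bp around the start (x axis), for lncRNA starts under a peak of the set (blue, n = 349), lncRNA starts away from protein-coding genes without a peak (grey, n = 4653) and protein-coding starts under a peak (orange, n = 10382). The blue curve lies between the others, with medians of 7, 3 and 22 CpG. Peaks over protein-coding starts were of any width, those of the set narrower than 3000 bp.

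Short motifs followed the same order where they are rich in G and C. The GC box, bound by SP and KLF factors, was present in 32.7% of the lncRNA promoters under a peak of the set, 8.40% of those without a peak, 68.1% of acetylated protein-coding promoters and 35.7% of all 32850 promoters. The ETS motif was present in 8.31%, 2.62%, 20.7% and 8.86%. The AP-1 motif, the site of Fos, Jun and BATF dimers, had another order, at 13.2% of the lncRNA promoters under a peak, 10.4% of those without, 4.35% of acetylated protein-coding promoters and 7.81% of all. Under a peak it was present in 9.74% of the 154 curated starts and 15.9% of the 195 predicted ones. Only the share of predicted starts lay above that of lncRNA starts without a peak. The nuclear receptor half-site was present in 18.3% of the lncRNA promoters under a peak, 21.0% of those without and 16.3% of all. The TATA box was present in 42 of the 349 under a peak, 17.1% of those without and 13.6% of all, and the CCAAT box in 31.8%, 37.7% and 37.4%. Base composition and the limit on peak width differ between these groups, and their part in the motif shares was not tested.

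The lncRNA genes that held the most acetylated length of this kind were mostly long transcripts known only by a clone or model name. Gm1604a (chr17:7855073-8108015, minus strand) had 19 peaks of the set, of 100 to 2831 bp and 14916 bp in sum, over 252943 bp. Their nearest protein-coding genes were Fndc1, Rsph3a and Tagap, a GTPase-activating protein of activated T cells, and the widest was 19223 bp from Tagap. Gm1604a itself overlaps Tagap. Gm31718 (chr8:126804707-126908370) had 20, the highest number, with 13405 bp in sum, and all had Tomm20, a mitochondrial import receptor, as nearest protein-coding gene, at 25556 to 89162 bp. It is also the site of the cluster with the most peaks of the set: 45 peaks between 126797268 and 126946433 covered 77122 bp, so the 20 narrow peaks held the smaller part of that length.

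Counting peaks of the set only, Gm38712 (chr3:107039566-107092899) had 15 peaks and 13282 bp, equal to 24.9% of its own length. It overlaps the potassium channel gene Kcna2 and lies beside Kcna3, which encodes the main voltage-gated potassium channel of T cells. Gm17767 had 12 peaks and 11527 bp near Nabp1. Gm28068, which overlaps Ly6i, had 17 peaks and 10812 bp in the Ly6 gene cluster. Gm30771 (chr7:38061280-38095187, plus strand) was the most densely covered of the 10, with 7 peaks and 10348 bp, equal to 30.5% of its length. All of its peaks had Ccne1, the gene of cyclin E1, as nearest protein-coding gene, and no other peak of the list lay over it. Gm41980 had 6 peaks and 10081 bp near the immediate early gene Ier5. E430016F16Rik had 12 peaks and 9247 bp, and 4933406J09Rik, which overlaps Bcl2l14, had 19 peaks and 9023 bp, nearest to Etv6 or Bcl2l14.

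**Figure D4:**
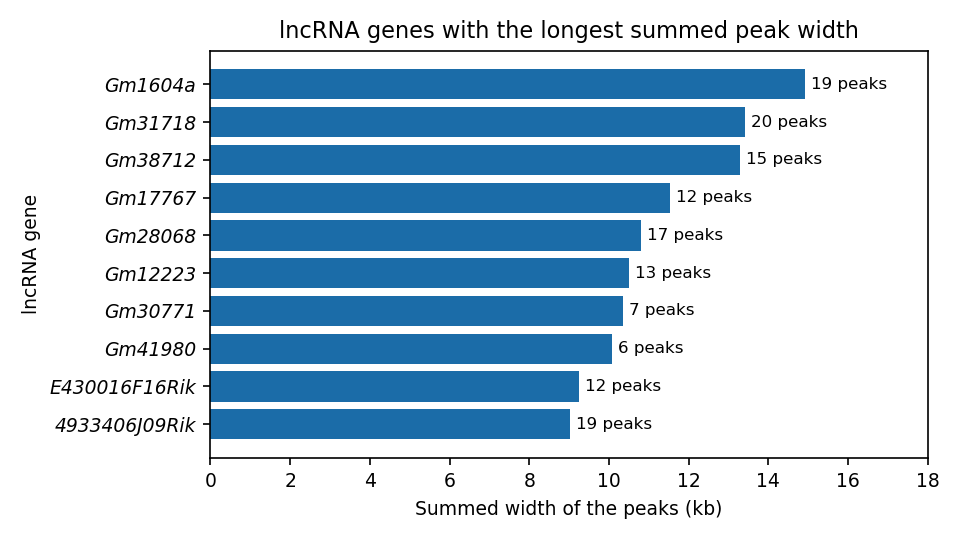
Summed width in kb (x axis) of the peaks of the set over each of the 10 noncoding RNA genes with the longest sum, all of them lncRNA genes, with the number of peaks beside each bar. The sums run from 9023 bp (4933406J09Rik, 19 peaks) to 14916 bp (Gm1604a, 19 peaks), so like sums rest on different numbers of peaks.

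Among noncoding RNA genes with a known role, 14 of the 44 that the gene table lists had a peak of the set, from a list of 50 symbols, beside 9.54% of all noncoding RNA genes and 20.2% of lncRNA genes clear of protein-coding genes. For curated lncRNA genes the shares were 14.9% of all and 26.3% of those clear of protein-coding genes. The 44 were not limited to clear genes, and the list was drawn up with results of these data known. Another 19 of the 44 had other peaks only, and 11 had none. Mir155hg, the host of miR-155, showed how the rule divides a locus. The gene runs from 84713023 to 84715245 on chromosome 16. A peak of 14861 bp, from 84698349 to 84713209, lay mostly before the gene and was left out for its width. This wide peak covered the annotated start of the gene, on the plus strand, and the peak of the set did not. The peak of the set lay next to that wide peak, ran from 84713288 to 84715473 (2186 bp) and covered the whole miR-155 hairpin. Pvt1, beside Myc, had 32 peaks, and 1 of them, of 821 bp at 88801 bp from Myc, entered the set. Most of the others lay over 100 kb from Myc. Malat1 (1 peak of 11905 bp) and Xist (1 of 3114 bp) were left out for width. The peaks of Neat1 (9636 bp) and Gas5 (4925 bp) were also too wide, and they touched a protein-coding gene or its end window as well.

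The counts that follow are of peaks of the set. Snhg15 and Snhg17, hosts of snoRNAs, each had 2, of 2362 and 2479 bp and of 625 and 2605 bp, and the second of each covered an annotated start. Ftx had 4 of 200 to 1498 bp, and Jpx had 1 of 2818 bp. Dleu2 had 3, of 612, 189 and 2544 bp, and the last covered its start. Mirt1 had 7 with 6863 bp in sum, and the widest of them, of 2991 bp, was the widest of the whole set. Ftx, Dleu2, Mirt1 and Oip5os1 each had 1 more peak, of 3208, 3144, 10127 and 3880 bp, which was left out for its width. Trp53cor1 (lincRNA-p21), a target of p53, had 3 peaks of 329, 1436 and 2231 bp, and the last lay 10903 bp from Cdkn1a, the cell cycle inhibitor p21. Mir22hg had 1 of 1622 bp, Norad 1 of 832 bp and Oip5os1 1 of 400 bp. The Norad peak met only the edge of the gene, as it began at 156392874 and the gene ends at 156392979. Among short RNAs, Rn7sk, which holds the elongation factor P-TEFb inactive, had a peak of 1602 bp, and Terc, the RNA template of telomerase, 1 of 1072 bp. The Rn7sk peak, from 78175590 to 78177191, met only the edge of the gene, which runs from 78175302 to 78175633. No peak lay over Mir17hg, Meg3, H19, Ifngas1 or Miat.

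MicroRNA genes made up a small part of the set. The 14 genes lay under 11 peaks of 135 to 2927 bp. Mir23a, Mir27a and Mir24-2, whose seeds are printed above, form 1 cluster under a single peak of 2653 bp (84206897 to 84209549). That peak also covered Mir3074-2 on the other strand. Mir210 lay under a peak of 1297 bp, Mir193a under 1 of 1504 bp and Mir7671 under 1 of 1893 bp. A pair of narrow peaks covered only part of their hairpins. That over Mir713 (401 bp) ended before the mature sequence, and that over Mir7688 (135 bp) began inside its 5p arm and covered the rest.

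Peaks over tRNA genes were about as wide as those over microRNA genes and over lncRNA starts. The 47 peaks over 65 tRNA genes had a median of 1463 bp (351 to 2947 bp), beside 1504 bp for the 11 over microRNA genes, 1451 bp over lncRNA starts and 489 bp for the whole set. Here too a wide peak meets a short gene more readily than a narrow one. Chromosomes 13, 11 and 1 held 12, 8 and 8 of them, and those on chromosome 13 ran from 21167691 to 23519494, among histone genes. The peak with the most tRNA genes, 2396 bp at chr11:69039451-69041846 near Ctc1, covered 4, for aspartate, glycine, proline and tryptophan. tRNA genes are transcribed by RNA polymerase III, and whether these peaks belong to them or to other promoters nearby was not tested. Both Y RNA genes, Rny1 and Rny3, had a peak of the set as well, of 1260 and 1610 bp, near Pdia4.

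Peaks over noncoding RNA genes were nearest to 1361 protein-coding genes, 6.22% of the 21887 in the table. Counts of peaks per gene below are of this set. Nearness is position only and does not show which gene a peak acts on. Of these genes, 706 (51.9%) were nearest to 1 peak and 123 to 5 or more. For 78.0% of the peaks (95% exact interval 76.4 to 79.4%, for the number of peaks only) the nearest gene had a peak of its own within 1000 bp of an end, against 53.2% of all protein-coding genes. Counted once per gene, the share was 74.9% (1019 of 1361). Comparison peaks gave 80.2% (79.4 to 81.0%) and 76.1% per gene, so nearness to acetylated genes was shared by distal peaks with and without a noncoding RNA gene. Of the 1361 genes, 711 (52.2%) were also nearest to a comparison peak, and these were 18.3% of the 3881 genes that comparison peaks were nearest to.

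Cd47, the "don't eat me" ligand of SIRPα, had the most, with 21 peaks and 17189 bp over 3 noncoding genes (Gm4633, Gm5486 and Gm6936) at 1408 to 81571 bp. Tomm20 followed with 20 and Bcl2l14 with 16. Pcbp1, an RNA-binding protein, and Sema6d, a semaphorin, had 15 each, and the transcription factor gene Zfp281 had 14. Slc44a3, Btg1 (an antiproliferative factor of quiescent T cells), Dcn (the matrix protein decorin) and Id2 (an inhibitor of E proteins) had 13 each. In 4 of these 10, Bcl2l14, Sema6d, Slc44a3 and Dcn, the gene itself had no peak at its ends. The 13 peaks nearest to Dcn lay at 69744 to 90657 bp over Gm34114, and those nearest to Id2 at 35993 to 97823 bp over Gm17746 and Gm36287.

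Genes of the Th17 program were nearest to such peaks in 6 of 30 cases (20.0%), beside 6.22% of all protein-coding genes. The lists were drawn up with results of these data known, so these shares are descriptions. Csf2, which encodes the cytokine GM-CSF, had 8 peaks, all over the lncRNA gene Gm12223 (chr11:54141868-54260537), at 1663 to 45129 bp. Gm12223 is a model that RefSeq only predicts, and it overlaps Csf2 itself. The widest of the 8 peaks, at 54213458 to 54216227 (2770 bp), lay 31042 bp from Csf2. The 5 other peaks of Gm12223 were nearest to P4ha2. Il21, an autocrine cytokine of Th17 cells, had 3, of 2590, 1772 and 347 bp at 35200 to 46704 bp, over Gm36000 and Gm12532. A further peak over Gm36000, of 878 bp, was nearest to Il2 on the other side, at 46489 bp.

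Maf, a transcription factor of IL-10 and IL-21 producing cells, had 4 peaks of 178 to 739 bp at 77378 to 84728 bp over Gm39256. Tgfbr2, a receptor chain for TGF-β, had 1 of 2037 bp over Gm4668, and Hif1a, a driver of glycolysis in Th17 cells, had 1 of 1653 bp over Gm15283 just 1043 bp away. Comparison peaks were nearest to 21 of the 30 (70.0%), beside 17.7% of all protein-coding genes. The comparison set holds more peaks, and its share was also the higher one in the 5 other lists of T cell and signalling genes.

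T cell identity and receptor signalling genes were nearest in 10 of 25 cases (40.0%), with 39 peaks and 40745 bp, the longest sum of the 7 lists. Satb1, a chromatin organiser of T cells, had 8 peaks over Gm20098 at 50770 to 96096 bp. Ikzf1 (Ikaros) had 6 over Gm11999 at 1326 to 26721 bp, the widest of 2735 and 2457 bp. Tcf7, which encodes TCF-1, had 3 over Gm30217, of 1015, 2547 and 2676 bp. Activation and survival genes were nearest in 11 of 25 cases (44.0%). Egr2, an early growth response factor induced by the T cell receptor, had 6 of 108 to 1854 bp over Gm32255. Bcl2, the survival factor, had 2, of 2579 and 288 bp, over Gm41928, and Nfatc1, a calcineurin-dependent factor, had 3 over Gm41790.

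Genes of other helper programs were nearest in 7 of 23 cases (30.4%). Besides Id2, the inhibitory receptor gene Ctla4 had 6 peaks of 100 to 2738 bp over Gm38137, and Stat4, the signal transducer of IL-12, had 2, of 267 and 2959 bp, over Gm31812. Cytokine signalling genes were nearest in 5 of 24 cases (20.8%): Stat4 again, Ifnar1 with 3 over A930006K02Rik, Ifngr1 with 2 over Gm33104, Jak1 and Jak2. TGF-β signalling genes were nearest in 5 of 20 cases. Tgif1, a corepressor of SMADs, had 3 over Gm26510, and Smad7, the inhibitory SMAD, 3 over Gm20544. Markers of other cell types were nearest in 3 of 28 cases (10.7%), Snap25, Klrb1c and Alb, with 4 peaks and 2655 bp, and the comparison peaks also gave 3 of 28.

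**Figure D5:**
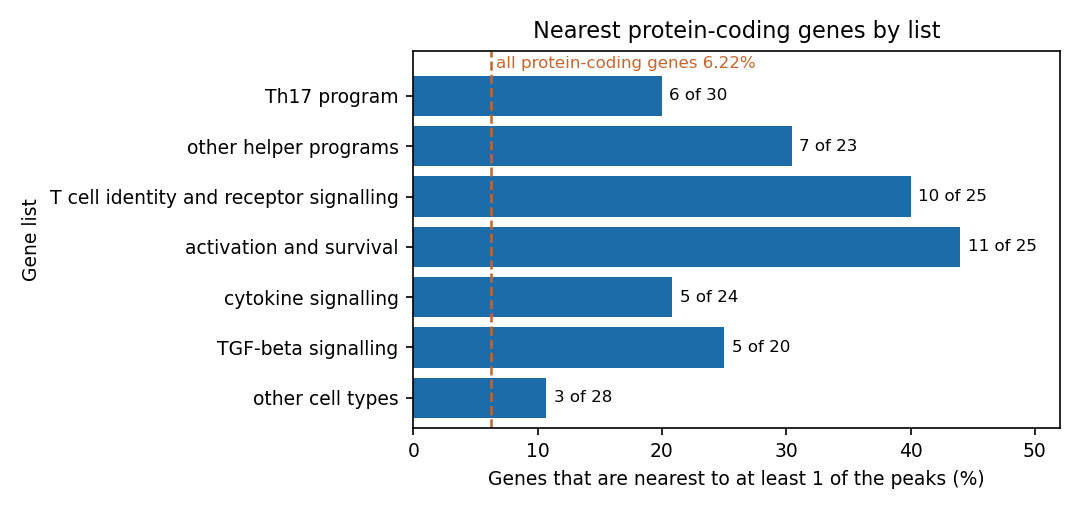
Share of the genes of each list (x axis, %) that are the nearest protein-coding gene of at least 1 peak over a noncoding RNA gene, with the counts beside the bars and a dashed line at the share of all protein-coding genes (6.22%). The bars run from 10.7% (other cell types) to 44.0% (activation and survival).

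No chromosome held the set alone. Its share of a chromosome's peaks ran from 3.65% on chromosome 4 to 6.98% on chromosome 12, with 46 peaks on the X chromosome and 0 on Y, where the list holds 1 peak.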

How the data were processed

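H3K27ac ChIP-seq was made in 2 samples of cultured Th17 cells, with 2 input DNA samples. The authors deposited 1 list of positions with peak names, in bp, in which no column belongs to a single sample. Per the submitters' processing notes the build was GRCm38 (mm10), with the tools MACS2 2.2.6, Bowtie2 2.3.4.1, deepTools and SAMtools 1.9. Peaks were called by MACS against the input of each replicate, per the series' design. The sources used here give neither the threshold nor whether replicates were pooled.

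Starts were read as counted from 0, since 788 peaks then have exactly 100 bp, and positions are given counted from 1. The names carry running numbers of 15 to 71449, with 15150 skipped. Genes, microRNAs and promoters came from RefSeq tables of GRCm38.p6. The table has no biotype called ncRNA, so every noncoding RNA biotype was used, pseudogenes not included. The promoter table gives the strand of 9533 lncRNA genes. Counts of peak position took the start and finish from the ends of the gene. CpG and motif counts took the starts of the promoter table, where a gene can have more than 1. Exons were not used here. Clusters were stitched across gaps of up to 12.5 kb. Intervals are Clopper-Pearson at 95% and cover the number of peaks only, and peaks are not replicates. The code that picks the set and the comparison peaks was run on 400 planted peaks among simple genes that do not overlap. All were given back. The run stops at any mismatch, so this checks the code and is not a result. Overlapping genes were not part of it.

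The members and gene lists were chosen with earlier results of these data known. Named are the 10 noncoding genes with the longest summed width, the 10 protein-coding genes nearest to the most peaks, listed noncoding genes with a peak, Th17 genes nearest to a peak (1 is not reported here), up to 3 genes of each other list, and the widest peaks. Other names (such as microRNAs, tRNA and Y RNA genes, Jak1, Jak2, Klrb1c, Il2, Malat1 and neighbours of named genes) were chosen after their values were seen. Work was done in Python 3.11.15 with pandas 2.3.3, numpy 2.4.6, matplotlib 3.10.9 and scipy 1.17.1. The alternatives tried were other width, end window, distance and stitching limits, the peak midpoint, a minimum width and merged peaks. Added after seeing the data were lncRNA genes only, and all noncoding RNA genes but predicted lncRNA models.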

Additional observations from a re-analysis of the deposited data

How the results depend on the processing

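Under 12 alternatives, 67 values were recomputed, and 37 stayed within the limits, which were 1.5 times for a count and the 95% interval otherwise. The share of the 2995 peaks within reach of an end of their noncoding RNA gene (34.5%) was 32.2% with a width limit of 2000 bp, 37.2% with none, 28.0% with end windows of 500 bp, 48.0% with windows of 2500 bp, 36.9% with a distance limit of 50 kb, 30.6% with none, 30.0% by peak midpoint, 44.7% for peaks of at least 500 bp, 42.2% after merging peaks at most 1000 bp apart, and 32.7% for lncRNA genes only. The median width (489 bp) was 439 bp with the 2000 bp limit, 565 bp with no limit, 455.5 bp by midpoint and 1116 bp for peaks of at least 500 bp. It was 946 bp after merging and 546 bp with predicted lncRNA models left out. The median distance (19468 bp) was 21490 bp with windows of 2500 bp, 14447 bp within 50 kb and 29437 bp with no limit. It was 18218 bp with predicted lncRNA models left out. The share whose nearest protein-coding gene had a peak at an end (78.0%) was 75.4% with windows of 500 bp, 81.2% with 2500 bp, 75.3% for peaks of at least 500 bp and 76.0% after merging. The number of peaks was 1477 at 500 bp or more, 1685 after merging and 1128 with predicted lncRNA models left out. The share in clusters (87.0%) was 72.8% at 500 bp or more, 68.4% after merging and 75.9% with stitching at 5000 bp. The width, distance and window limits change the members by construction, and the cause of other shifts was not tested. The settings with lncRNA genes only and with predicted lncRNA models left out were chosen after seeing the data. The latter kept every other kind of noncoding RNA gene. No paired analysis was possible because the values come from no test and the list holds no value per replicate. Replicates could not be left out for the same reason, and the depth behind the peaks is unknown.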
